A study of Mus musculus with 5 samples.

Results

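Injured mouse retinas were used to describe 10 genes of the Fas, TRAIL and TNF family, which were taken by gene symbol from the 25655 symbols of the count table. All 10 were found, of which 9 passed the filter on low counts and entered the fit over 14992 genes, and Tnf did not. The series holds whole retinas of wildtype C57BL/6 mice, which were 8 to 10 weeks old at the optic nerve crush (ONC), with the left nerve crushed and the retina of that eye taken 7 days later. Each mouse received daily intraperitoneal Sorbinil, an inhibitor of aldose reductase, at 10 mg/kg, or the vehicle DMSO, starting before the crush. The DMSO group held 3 retinas (replicates 1, 2 and 3), and the Sorbinil group 2 (replicates 1 and 3), all of them crushed, so no uninjured retina serves as a baseline here, and the sex of each mouse is not in the labels.

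Ligands of the TNF superfamily bind receptors of the TNF receptor superfamily at the cell surface. Death receptors, such as Fas, carry a death domain in the cytoplasm, through which the adaptor Fadd recruits caspase-8 and starts apoptosis, or through which Tradd and Ripk1 turn on NF-kB. Other receptors have no death domain and bind TRAF adaptors, and decoy receptors bind a ligand without passing on a signal. In the injured retina, these pathways are known from microglia, which secrete TNF-α, and from retinal ganglion cells (RGCs), which can die through them.

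The members had been chosen with results of these retinas known. The Sorbinil and DMSO values of the members are therefore a description, no p-value of a single member is given, and counts of members past a threshold support nothing. Counts on genes ran from 56096541 to 90288552 per retina. Sorbinil replicate 1 stood apart from the other retinas. It scored 75.8 on the first principal component of log2 CPM, which took 65.4% of the variance, while the other 4 retinas scored from -28.9 to -7.64. In this retina the summed level of 8 rod markers was 119639 CPM, compared to 62004 to 87025 CPM in the other retinas, and that of 8 Müller glia markers was 1990 CPM, compared to 5386 to 6268 CPM. CPM values are counts relative to the library size after TMM scaling. The fold change of each fitted member is therefore given with and without this retina, while those of the pathway genes are from all 5 retinas unless stated. In whole retina, fewer cells of a type and less RNA per cell cannot be told apart.

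The region before the start site is shown for 3 members with unlike patterns: Fas and Tnfsf10, which were lower in both Sorbinil retinas, and Tnfrsf12a, which kept its level in Sorbinil replicate 1. RefSeq promoters (build GRCm38.p6) were matched for 8 of the 10 members, without Tnfrsf10b and Tnfrsf11b. The 250 bases before the start site are printed 5′ to 3′ on the gene's strand, from chr19:34290409-34290658 (plus), chr3:27316827-27317076 (plus) and chr17:23677450-23677699 (minus) in the same order. Capitals mark matches on either strand to the AP-1 site TGANTCA, the interferon-activated site (GAS) TTCNNNGAA and the GC box GGGCGG, of which neighbouring GC boxes may adjoin.
Fas: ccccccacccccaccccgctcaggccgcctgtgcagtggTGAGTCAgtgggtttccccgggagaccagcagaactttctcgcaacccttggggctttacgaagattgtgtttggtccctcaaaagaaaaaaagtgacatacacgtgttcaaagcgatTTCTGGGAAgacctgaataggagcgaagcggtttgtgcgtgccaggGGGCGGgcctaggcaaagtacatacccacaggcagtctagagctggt
Tnfsf10: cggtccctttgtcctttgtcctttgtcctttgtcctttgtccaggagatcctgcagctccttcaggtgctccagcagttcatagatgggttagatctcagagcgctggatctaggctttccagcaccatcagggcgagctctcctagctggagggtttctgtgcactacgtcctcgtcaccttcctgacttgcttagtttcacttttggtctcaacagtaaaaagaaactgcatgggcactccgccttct
Tnfrsf12a: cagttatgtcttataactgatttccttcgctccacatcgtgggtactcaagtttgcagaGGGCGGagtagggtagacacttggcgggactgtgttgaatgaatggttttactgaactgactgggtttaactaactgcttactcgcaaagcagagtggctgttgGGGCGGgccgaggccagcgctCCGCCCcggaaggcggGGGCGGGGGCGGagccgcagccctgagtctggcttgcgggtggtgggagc

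The Fas region held 1 AP-1 match, starting 211 bases before the start site, 1 GAS match at 93 bases and 1 GC box at 47 bases. The Tnfrsf12a region held 5 GC boxes and neither of the other motifs. In the Tnfsf10 region none of these letters was found. Over all 32841 promoters of this length, the AP-1 letters were in 6.75%, the GAS letters in 7.02% and the GC box in 32.7%. Among the 8 member promoters, GAS letters were found in 3 (Fas, Tnfrsf1a and Tnfrsf1b), AP-1 letters in 1 and a GC box in 6. The NF-kB consensus was found in 0 of the 8 windows and in 7.25% of all promoters. TATAAA was found before 1 member, Tnf, 29 bases before its start site, and in 12.4% of all promoters. These matches are letters in a window and show no binding.

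The levels of the members spanned a wide range. Compared per length, as CPM per kilobase of exon, Ngfr, the p75 neurotrophin receptor and the most abundant member, measured 15.8 ± 3.1 (SD, n = 3) in the DMSO retinas. Its lowest DMSO value was above the highest value of the next member, Tnfrsf1a, and this held over all 5 retinas. Tnfrsf1a, Tnfrsf21 and Tnfrsf12a followed at 5.39 ± 0.98, 4.83 ± 0.29 and 4.62 ± 0.70 CPM per kilobase (SD, n = 3), and neighbours among these overlapped. Tnfrsf1b came next at 0.672 ± 0.163 CPM per kilobase, 6.88-fold below Tnfrsf12a, with no overlap in any retina.

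Fas and Tnfsf10 had low levels per length, 0.245 ± 0.075 and 0.187 ± 0.026 CPM per kilobase (SD, n = 3) in the DMSO retinas, and overlapped. Tnfrsf10b, at 0.147 ± 0.019, was below Tnfsf10 in DMSO by a margin of 0.161 against 0.162 between its highest and the other's lowest retina, and overlapped with it over all 5 retinas. The 2 lowest members, Tnfrsf11b at 0.0549 ± 0.0098 and Tnf at 0.0415 ± 0.0178 CPM per kilobase, overlapped. In Sorbinil replicate 1 Tnfrsf12a took the place of Tnfrsf1a below Ngfr, and in both Sorbinil retinas Tnfsf10 ranked below Tnfrsf10b.

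**Figure D1:**
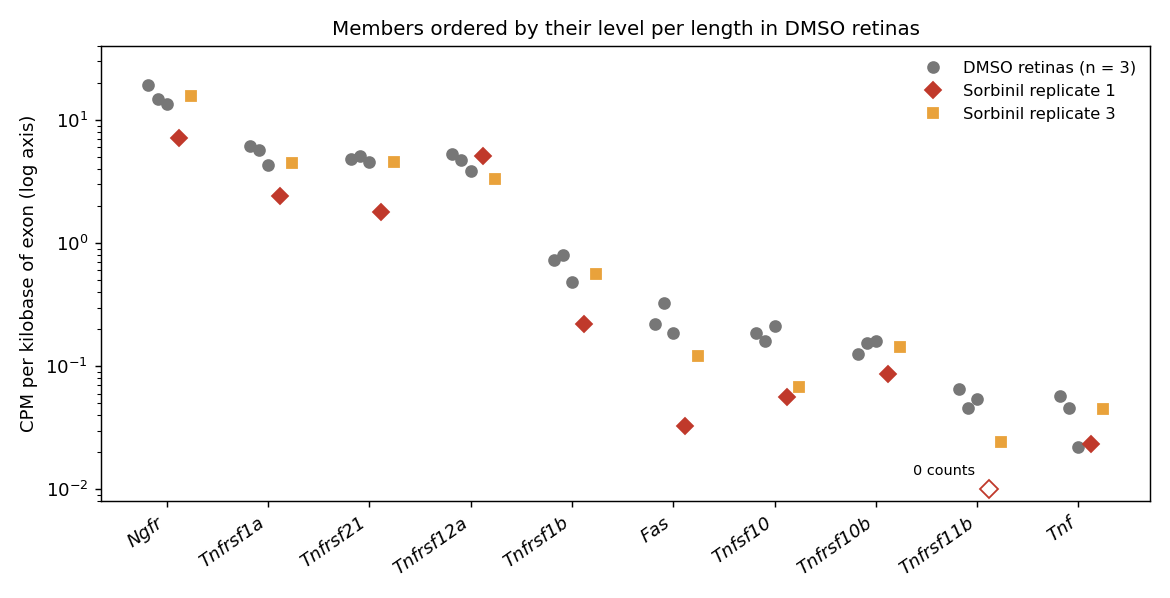
Level of each member per length (CPM per kilobase of exon, log axis), with members ordered by their mean in the DMSO retinas. Each point is 1 retina: circles are DMSO, the diamond is Sorbinil replicate 1 and the square is Sorbinil replicate 3. The open diamond marks 0 counts of Tnfrsf11b and is drawn at the bottom of the axis. Ngfr lies above every other member, and 4 members lie above 1 CPM per kilobase in every retina.

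Of the ligands, Tnfsf10 was lower in both Sorbinil retinas. Tnfsf10 (ENSMUSG00000039304, GRCm39 chromosome 3 from 27371033 to 27396576, plus strand) encodes TRAIL, the ligand of the death receptor encoded by Tnfrsf10b. Counts of 98, 70 and 64 in DMSO replicates 1, 2 and 3 stood against 16 and 25 in Sorbinil replicates 1 and 3. In CPM, the values were 1.01, 0.876 and 1.15 in the DMSO group, and 0.304 and 0.368 in the Sorbinil group.

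Tnfsf10 was lower in both Sorbinil retinas than in any DMSO retina, and the 2 Sorbinil retinas were close to each other. The mean of the DMSO retinas was 1.01 ± 0.14 CPM (SD, n = 3), 3.01-fold above the Sorbinil mean of 0.336 ± 0.045 CPM (SD, n = 2), with a fitted log2 fold change of -1.58 (standard error 0.33). Leaving out Sorbinil replicate 1 gave -1.44, and leaving out Sorbinil replicate 3 gave -1.72. Tnfsf10 was therefore the member whose lower level depended least on the retina that stood apart.

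Tnf, which encodes TNF-α, a cytokine of activated microglia, was near the limit of detection in whole retina. Only 9, 6 and 2 counts were found with DMSO, and 2 and 5 with Sorbinil. The mean was 0.0680 ± 0.0292 CPM (SD, n = 3) with DMSO, and with Sorbinil it was 0.0559 ± 0.0252 CPM (SD, n = 2). The groups overlapped. Summed over retinas, the ratio of Sorbinil to DMSO was 0.794 with an exact 95% interval of 0.278 to 2.01, which covers counting error only, so that a difference in Tnf mRNA was not detectable at this depth. Tnf (ENSMUSG00000024401) lies on chromosome 17 from 35418357 to 35420983, minus strand.

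Among the death receptors, Fas differed most between the groups. Fas (ENSMUSG00000024778, chromosome 19 from 34268001 to 34305173, plus strand), the receptor of Fas ligand, was counted 49, 61 and 24 times in the DMSO retinas, 4 times in Sorbinil replicate 1 and 19 times in Sorbinil replicate 3. In CPM this is 0.507, 0.763 and 0.432 against 0.0761 and 0.280. The exact 95% counting intervals in CPM were 0.0207 to 0.195 in Sorbinil replicate 1 and 0.169 to 0.437 in Sorbinil replicate 3. The lowest DMSO retina, replicate 3, had an interval of 0.277 to 0.643 CPM.

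Both Sorbinil retinas were below every DMSO retina in Fas, but the interval of Sorbinil replicate 3 overlapped that of DMSO replicate 3. Fas was 7.45-fold below the DMSO mean in Sorbinil replicate 1 and 2.03-fold below it in Sorbinil replicate 3. The fitted log2 fold change was -1.63 (standard error 0.61), and -1.01 without Sorbinil replicate 1. Unlike Tnfsf10, Fas differed widely between the Sorbinil retinas, with the larger distance from the DMSO mean in the retina that stood apart.

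**Figure D2:**
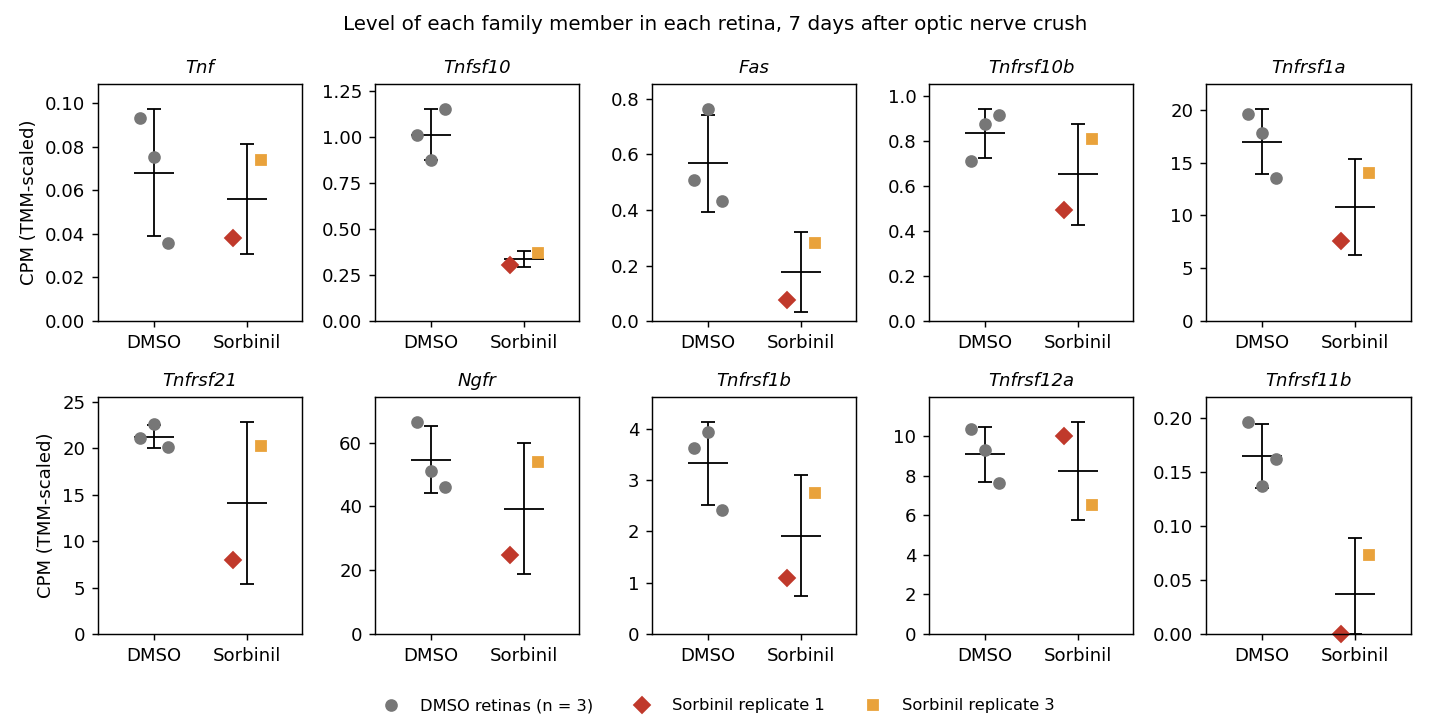
CPM of each member in each retina, on axes that start at 0. Points are retinas, the horizontal bar is the group mean and the error bar is 1 SD (3 DMSO retinas, 2 Sorbinil retinas), cut off at 0. In Tnfsf10, Fas and Tnfrsf11b both Sorbinil points lie below all DMSO points, and in Tnfsf10 the 2 Sorbinil points lie close together, at 0.304 and 0.368 CPM.

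Tnfrsf10b, the death receptor for TRAIL in the mouse (ENSMUSG00000022074, chromosome 14 from 70004916 to 70021860, plus strand), did not share the low values of its ligand. Its counts were 69, 70 and 51 for DMSO, and 26 and 55 for Sorbinil. The Sorbinil mean of 0.652 ± 0.223 CPM (SD, n = 2) lay below the DMSO mean of 0.836 ± 0.108 CPM (SD, n = 3), with a log2 fold change of -0.35 (standard error 0.36), which was -0.03 without Sorbinil replicate 1. Sorbinil replicate 3, at 0.810 CPM, was within the DMSO range.

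The ratio of Tnfrsf10b to Tnfsf10 did not overlap between the groups. Tnfsf10 alone did not overlap either, so the ratio carries that difference over and is no separate support. Per length, Tnfrsf10b was 0.669, 0.949 and 0.757 times as high as Tnfsf10 in the DMSO retinas. It was 1.54 and 2.09 times as high in Sorbinil replicates 1 and 3, so that the 2 genes stood in the opposite order in both Sorbinil retinas.

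Tnfrsf1a (ENSMUSG00000030341, chromosome 6 from 125325566 to 125339632, plus strand), the TNF receptor with a death domain, was counted 1891, 1425 and 753 times with DMSO, and 400 and 951 times with Sorbinil. It measured 19.6, 17.8 and 13.6 CPM with DMSO, and 7.61 and 14.0 CPM with Sorbinil. Only Sorbinil replicate 1 was below the DMSO range. The log2 fold change was -0.65 (standard error 0.31), and became -0.27 without Sorbinil replicate 1 and -1.16 without Sorbinil replicate 3. In GENCODE vM39, 19 of its exonic bases are shared with Plekhg6 on the opposite strand.

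Tnfrsf21, also known as death receptor 6 (ENSMUSG00000023915, chromosome 17 from 43327349 to 43400081, plus strand), had the most even DMSO values of the family, at 21.0, 22.6 and 20.1 CPM. It measured 7.93 CPM in Sorbinil replicate 1 and 20.3 CPM in Sorbinil replicate 3. The first was 2.68-fold below the DMSO mean, and the second was within the DMSO range. Its log2 fold change of -0.59 (standard error 0.38) was -0.06 without Sorbinil replicate 1.

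Ngfr (ENSMUSG00000000120, chromosome 11 from 95459638 to 95478561, minus strand) binds neurotrophins and their precursors, and carries a death domain. Its counts came to 6429, 4091 and 2568 with DMSO, and 1308 and 3651 with Sorbinil. This is 66.5, 51.2 and 46.2 CPM in the DMSO retinas, 24.9 CPM in Sorbinil replicate 1 and 53.8 CPM in Sorbinil replicate 3. Ngfr in Sorbinil replicate 3 was within the DMSO range, and the log2 fold change went from -0.47 (standard error 0.35) to -0.01 without Sorbinil replicate 1.

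Of the receptors without a death domain, Tnfrsf1b, the second TNF receptor (ENSMUSG00000028599, chromosome 4 from 144938938 to 144973477, minus strand), measured 3.63, 3.94 and 2.41 CPM with DMSO and 1.08 and 2.75 CPM with Sorbinil. The fit gave a log2 fold change of -0.79 (standard error 0.46), and of -0.27 without Sorbinil replicate 1. The groups overlapped. Of its exonic bases, 184 (3.72%) are shared with the non-coding gene Gm68886 on the opposite strand. Tnfrsf1b shared the pattern of Tnfrsf1a, with the low value in Sorbinil replicate 1, and the ratio of Tnfrsf1a to Tnfrsf1b per length was 7.11 to 8.83 with DMSO, and with Sorbinil it was 11 in replicate 1 and 7.99 in replicate 3.

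Tnfrsf12a (ENSMUSG00000023905, chromosome 17 from 23894416 to 23896468, minus strand), the receptor of TWEAK, was the exception. With DMSO it was counted 1001, 742 and 423 times, and with Sorbinil 525 and 441 times, which is 10.4, 9.28 and 7.61 CPM against 9.99 and 6.50 CPM. Sorbinil replicate 1 was within the DMSO range, and Sorbinil replicate 3 was below it. The log2 fold change was -0.14 (standard error 0.25), -0.48 without Sorbinil replicate 1 and 0.14 without Sorbinil replicate 3.

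Relative to Tnfrsf1a per length, Tnfrsf12a was 0.834 to 0.900 with DMSO, and with Sorbinil it was 2.10 in replicate 1 and 0.743 in replicate 3. The counts of Tnfrsf12a carry a limit, since all 1965 exonic bases of Tnfrsf12a are also covered by exons of Hcfc1r1 on the opposite strand in GENCODE vM39. The libraries were stranded, but no source used here says whether strand entered the counting. Hcfc1r1 had 1327 counts in Sorbinil replicate 1 and 2135 in Sorbinil replicate 3, and its log2 fold change was -0.09 (standard error 0.15).

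Tnfrsf11b encodes osteoprotegerin, a soluble decoy receptor that binds TRAIL and RANKL (ENSMUSG00000063727, chromosome 15 from 54114015 to 54142075, minus strand). The DMSO retinas gave 19, 11 and 9 counts, Sorbinil replicate 1 gave 0 and Sorbinil replicate 3 gave 5. Both Sorbinil retinas were below every DMSO retina, at a depth where single counts matter. The ratio of Sorbinil to DMSO, summed over retinas, was 0.247 with an exact 95% counting interval of 0.0760 to 0.628. This interval covers counting error only, leaves out the spread between retinas and is no test of the groups.

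In Sorbinil replicate 1, setting the 0 counts to a floor of 3 counts would put Tnfrsf11b 2.90-fold below the DMSO mean. This is no lower bound, since the exact counting interval for 0 counts in that library reaches 3.69 counts, or 0.0702 CPM. In Sorbinil replicate 3 Tnfrsf11b was 2.24-fold below the DMSO mean. The gene passed the filter through its DMSO counts, and its fitted log2 fold change of -2.0 (standard error 0.89) depends on how a count of 0 is treated.

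**Figure D3:**
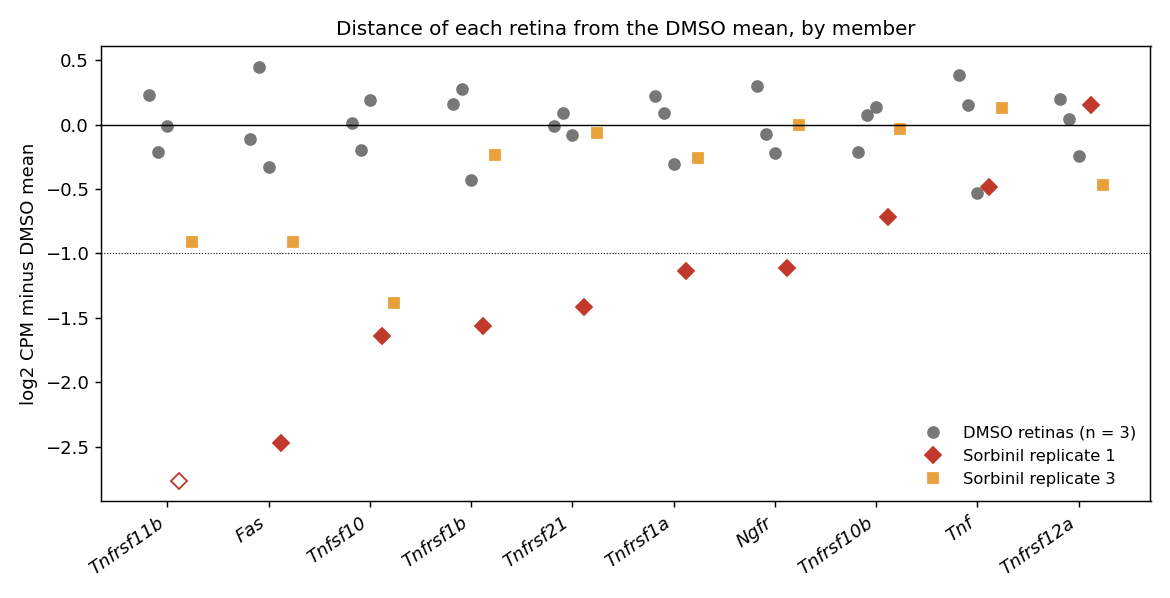
Difference of each retina from the DMSO mean in log2 CPM (prior count of 2), with members ordered by the value in Sorbinil replicate 1. Circles are DMSO retinas, diamonds Sorbinil replicate 1, squares Sorbinil replicate 3, and the dotted line marks a 2-fold lower level. The open diamond rests on 0 counts. The diamonds of 7 members lie below the dotted line, but only 1 square does, that of Tnfsf10.

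Across the family, the Sorbinil mean was below the DMSO mean in 10 of 10 members, and the log2 fold change was below 0 in 9 of the 9 that were fitted, compared to 51% of all genes tested. The median log2 fold change of the 9 members was -0.65, compared to -0.008 over all genes tested. In Sorbinil replicate 1 the median difference of the 9 members from the DMSO mean was -1.42, and 7 of them were at least 2-fold lower, as were 17.4% of all genes tested. In Sorbinil replicate 3 the median was -0.26, close to the -0.22 of DMSO replicate 3, and 1 member, Tnfsf10, was at least 2-fold lower, against 0.914% of all genes. These counts are on log2 CPM with a prior count of 2, which draws low counts together. In plain CPM, Fas and Tnfrsf11b were also more than 2-fold below the DMSO mean in Sorbinil replicate 3, as given above.

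The study's threshold takes genes that differ by 2-fold or more at an unadjusted p-value not above 0.1. By edgeR's quasi-likelihood test it called 1.71% of all genes, and 1.35% of all genes as lower. Of the 9 members fitted, 3 met it, all as lower: Fas, Tnfsf10 and Tnfrsf11b. By the DESeq2 Wald test the same threshold took 3 members and 1.65% of all genes. The 3 named were also the 3 of 10 members whose groups did not overlap, where 10.5% of all genes had both Sorbinil retinas lower and 23.2% had no overlap in either direction. Sorbinil replicate 1 was below every DMSO retina in 8 of 10 members and 41.7% of all genes, and Sorbinil replicate 3 in 4 of 10 members and 29.1% of all genes. Since the members were chosen on this comparison, these counts describe the choice. Fas and Tnfrsf11b also passed the filter through their DMSO counts, the group in which they are high, so their calls lend no support to a fall. After Benjamini-Hochberg adjustment over all genes, 0 of the 9 members and 0 of 14992 genes had an adjusted p-value under 0.05 by edgeR's test, 2 members had an unadjusted p-value under 0.05 (5.01% of all genes), and 0 members passed by the DESeq2 Wald test.

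The calls differed in how far they rested on single retinas. The other fits reuse the retinas on which the members were chosen. They describe this dependence and lend the calls no support. Tnfsf10 met the threshold in 13 of 13 other fits, with log2 fold changes from -1.72 to -1.44 when each retina was left out. Fas met it in 10 of the 12 that tested it, but not without DMSO replicate 2 (-1.36) or with the replicate number as a block (-1.54), and its log2 fold change ranged from -2.88 to -1.01 over the fits without 1 retina. Both Fas and Tnfrsf11b were removed, and their calls lost, when at least 10 counts were required in every retina, and Tnfrsf11b was also removed by the filter without DMSO replicate 1. Tnfrsf11b met the threshold in 8 of the 11 fits that tested it, and failed it without DMSO replicate 2 (-2.12), DMSO replicate 3 (-2.02) or Sorbinil replicate 1 (-1.15). Without Sorbinil replicate 3, Tnfrsf1a, Tnfrsf1b, Tnfrsf21 and Ngfr also met it, at -1.16, -1.62, -1.42 and -1.13.

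**Figure D4:**
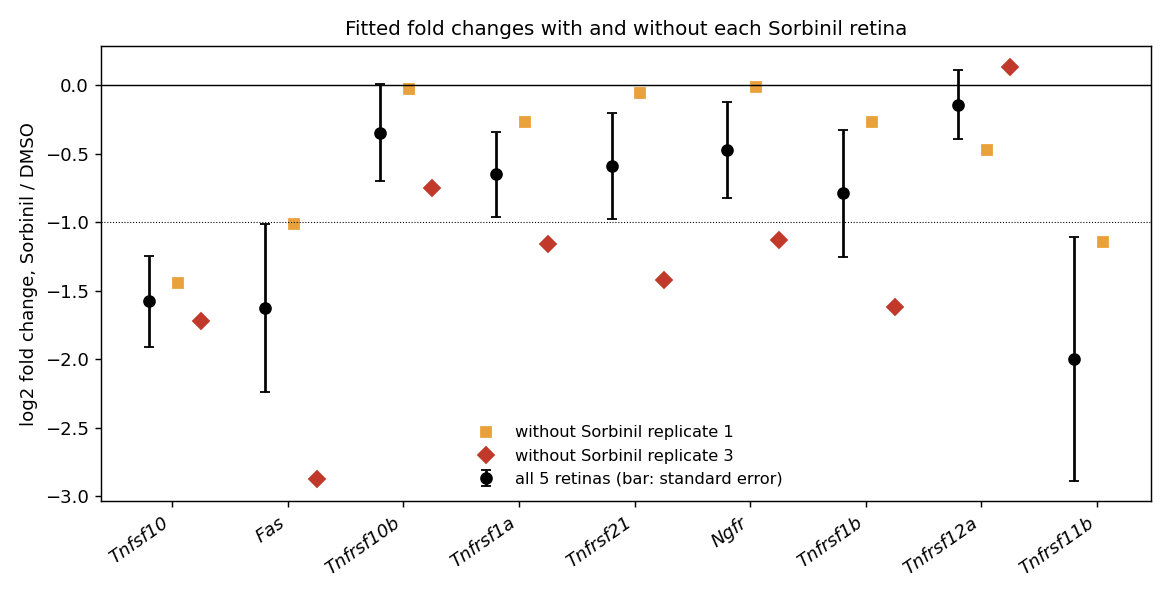
Fitted log2 fold change of Sorbinil against DMSO for the 9 members fitted, from all 5 retinas (black circles, bars are standard errors) and without Sorbinil replicate 1 (squares) or Sorbinil replicate 3 (diamonds). The dotted line marks a 2-fold lower level. The value of Tnfrsf11b without Sorbinil replicate 3 is left out, since it rests on 0 counts. Tnfsf10 stays between -1.72 and -1.44, while Ngfr and Tnfrsf21 come to -0.01 and -0.06 without Sorbinil replicate 1.

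Markers of several cell types moved with the members. In Sorbinil replicate 1 the median difference from the DMSO mean was -0.93 over 12 microglia and macrophage markers, -2.03 over 10 endothelial markers, -1.38 over 9 RGC markers and -1.47 over 8 Müller glia markers. The summed level of the microglial markers was 160.0 to 247 CPM in the DMSO retinas, 111 CPM in Sorbinil replicate 1 and 176 CPM in Sorbinil replicate 3. That of the endothelial markers was 304 to 473 CPM with DMSO, 162 and 407 CPM with Sorbinil. Most of the endothelial sum is Kdr and Flt1, at 277 and 109 CPM in Sorbinil replicate 3, so it says little of the other markers. No marker in these 4 lists was at 0 in any retina, and their part in the members' values was not tested.

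In Sorbinil replicate 3 these lists were nearer to DMSO, at -0.16 for microglia, -0.22 for RGCs and 0.02 for Müller glia, while the endothelial list was at -0.77. In the same retina, Tnfsf10 was at -1.38 and Fas at -0.91. Single endothelial markers ran from -1.52 (Erg) to 0.21 (Kdr) in this retina. Tie1, Cdh5, Cldn5 and Emcn were at -1.26, -1.17, -1.12 and -0.94. Pecam1, Esam, Egfl7 and Flt1 were at -0.61, -0.47, -0.16 and -0.09. The fibroblast and sclera list was higher there, with a summed level of 21.2 CPM, compared to 6.53 to 10.7 CPM with DMSO and 2.93 CPM in Sorbinil replicate 1. Markers of pericytes (24.7 to 93.7 CPM summed), astrocytes (29.3 to 101 CPM) and the crush response of RGCs (91.5 to 193 CPM) were lowest in Sorbinil replicate 1. Those of pigment epithelium ran from 80.0 to 247 CPM, of erythrocytes from 2.05 to 4.18 CPM, and of T and B lymphocytes from 0.383 to 0.647 CPM.

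**Figure D5:**
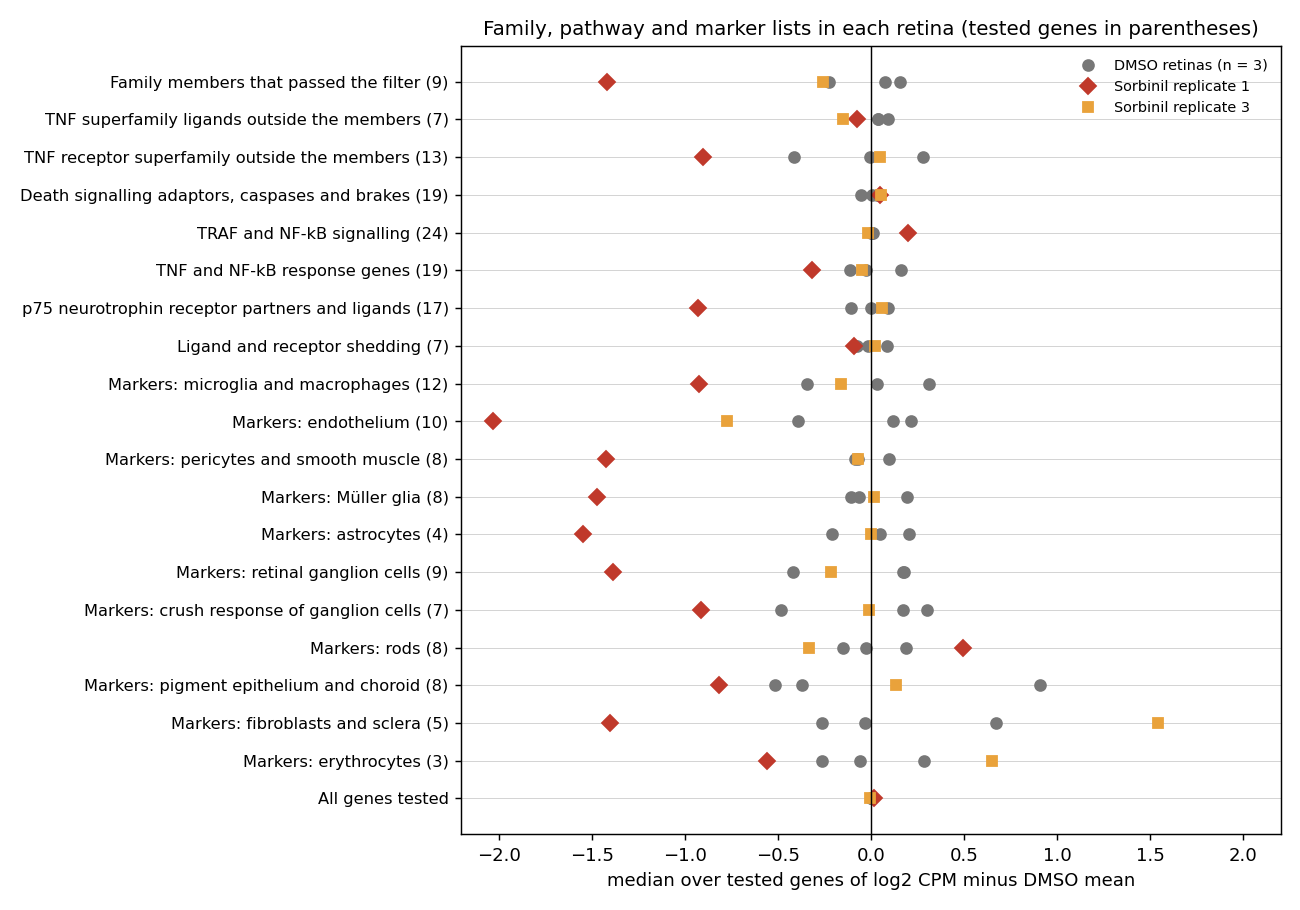
Median difference from the DMSO mean (log2 CPM) in each retina, for the family members, the pathway lists and the marker lists with at least 3 tested genes, with the number of tested genes in parentheses. Circles are DMSO retinas, diamonds Sorbinil replicate 1 and squares Sorbinil replicate 3. The family lies at -1.42 in Sorbinil replicate 1 and -0.26 in Sorbinil replicate 3, while adaptors and NF-kB signalling genes lie between -0.01 and 0.20 in both.

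The genes around the members, in 7 lists by role, were tested in the same fit. Of 131 listed genes, 106 were tested, and 2 were called at the study's threshold, a share near the 1.71% called over all genes. Eda2r, a receptor of ectodysplasin A2, was called as higher. By edgeR's test 0 of the 106 had an adjusted p-value under 0.05, 2 had an unadjusted p-value under 0.05 (Eda2r and Rel), and the DESeq2 Wald test gave 0 at an adjusted p-value under 0.05. The median log2 fold change of the 106 genes was -0.05.

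Eda2r was the gene called as higher, in the direction opposite to the members. Its counts were 4, 6 and 5 for DMSO, and 14 and 24 for Sorbinil, and each Sorbinil retina was above every DMSO retina. From 0.0688 ± 0.0249 CPM (SD, n = 3) under DMSO, its mean came to 0.310 ± 0.062 CPM (SD, n = 2) under Sorbinil. The fitted difference was 2.2 on the log2 scale (standard error 0.49), and edgeR's quasi-likelihood test gave an unadjusted p-value of 0.00452, which came to an adjusted p-value of 0.758. Its log2 fold change was 1.90 to 2.41 when each retina was left out. Eda2r passed the filter through its Sorbinil counts, the group in which it is high, so its call lends no support to a rise. It was removed when at least 10 counts were required in every retina.

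Of the 17 tested partners and ligands of the p75 receptor, 14 had a log2 fold change below 0, with a median of -0.33, and the median difference from the DMSO mean was -0.93 for Sorbinil replicate 1 and 0.06 for replicate 3. Maged1, an adaptor of the p75 receptor, had a log2 fold change of -0.38 (standard error 0.19).

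Among the other ligands of the superfamily, 7 of 16 were tested and 0 were called, with a median log2 fold change of -0.39. Fasl, the ligand of Fas, had 1 or 2 counts in every retina, and Tnfsf11, which encodes RANKL, had 0 counts in each. Tnfsf12, which encodes TWEAK, the ligand of Tnfrsf12a, was abundant, at 94.4 ± 4.3 CPM (SD, n = 3) with DMSO and 141 and 69.5 CPM in Sorbinil replicates 1 and 3. Its value was thus above the DMSO range in 1 Sorbinil retina and below it in the other, with a log2 fold change of 0.16 (standard error 0.29). Eda and Tnfsf13b, with the smallest p-values of the list, had log2 fold changes of -0.56 and -0.39 (standard errors 0.46 and 0.39).

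Of the other receptors, 13 of 20 were tested, with 10 below 0 and a median log2 fold change of -0.36. In Sorbinil replicate 1 the median was -0.90, and in Sorbinil replicate 3 it was 0.05. Ltbr, the lymphotoxin β receptor, had a log2 fold change of -0.66 (standard error 0.33), with 4.05 CPM in Sorbinil replicate 1 and 7.85 CPM in Sorbinil replicate 3, the second within the DMSO range of 7.81 to 11.1 CPM.

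The signalling genes inside the cell had medians close to 0, with single genes in either direction. Of 19 tested adaptors, caspases and brakes of death signalling, 0 were called, and the median log2 fold change was 0.04. Fadd was at 8.26 ± 0.30 CPM (SD, n = 2) with Sorbinil and at 7.0 ± 0.47 CPM (SD, n = 3) with DMSO, and its log2 fold change was 0.24 (standard error 0.16). Cflar, which encodes the caspase-8 inhibitor FLIP, measured 53.1 ± 1.8 and 54.9 ± 0.2 CPM, with a log2 fold change of 0.05 (standard error 0.10). Both had Sorbinil values above every DMSO value, which held for 12.8% of all genes tested.

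Casp8 measured 1.33 ± 0.07 CPM (SD, n = 3) with DMSO, 0.590 CPM in Sorbinil replicate 1 and 1.36 CPM in Sorbinil replicate 3. Tradd and Ripk1 had log2 fold changes of -0.04 and -0.01 (standard errors 0.35 and 0.21). Pidd1 and Xiap, with the smallest p-values of the list, were at 0.50 and 0.55 (standard errors 0.26 and 0.32).

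Of 24 tested TRAF and NF-kB genes, 0 were called, and the median log2 fold change was 0.07. Rel, an NF-kB subunit, measured 6.31 ± 0.26 CPM (SD, n = 3) with DMSO, and 11.4 and 7.38 CPM in Sorbinil replicates 1 and 3, a log2 fold change of 0.57 (standard error 0.23). Traf6 was at 0.26 (standard error 0.13). Of 19 tested response genes of TNF and NF-kB, 0 were called by edgeR's test and 11 were below 0, with a median of -0.09. By the DESeq2 Wald test 1 of them met the study's threshold as lower, Lcn2, which encodes lipocalin 2 and is named here after its value was seen. Lcn2 measured 27.1 CPM in DMSO replicate 2 and 3.98 to 5.48 CPM in the other 4 retinas, so that its DMSO mean rests on 1 retina. Icam1, an adhesion molecule for leukocytes, had a log2 fold change of -0.77 (standard error 0.38), and Csf1, a growth factor for macrophages, one of -0.61 (standard error 0.34). Of 7 tested genes of ligand and receptor shedding, 0 were called, and Rhbdf2 and Adam8 were at 0.35 and -0.62 (standard errors 0.20 and 0.38).

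The members also differed in which other genes they resembled. Likeness was measured over the 5 retinas as the root mean square difference of log2 CPM, each gene centred on its own mean, and is a description. The genes most like Fas were Gsx1, Igfbp3, Slc19a3, Gm20431 and Mill2, at 0.142 to 0.170. For Tnfsf10 they were Arrdc2 and Zfp750, at 0.106 and 0.149, and for Tnfrsf11b Hspa12b and Gm3411, at 0.157 and 0.165. Several of these genes had few counts, with means per retina of 19.8 for Gsx1, 26.4 for Slc19a3, 13 for Zfp750 and 8.2 for Gm3411. Distances include counting noise, which is larger at low counts, so they do not compare between members of unlike depth. For Tnfrsf1a they were Nos3 and Cavin1, at 0.0231 and 0.0275, and for Tnfrsf1b Peg12 and Fermt3, at 0.0260 and 0.0636.

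Ngfr was most like Syde1 and Obsl1 (0.0272 and 0.0308), Tnfrsf21 most like Gpc3 and Plscr4 (0.0397 and 0.0409), Tnfrsf10b most like Chst14 and Spag6 (0.0215 and 0.0531), and Tnfrsf12a most like F2rl1 and Clca1 (0.0509 and 0.0616). Within the family, the closest pair was Tnfrsf1a and Ngfr, at 0.134, and the farthest was Tnfrsf11b and Tnfrsf12a, at 1.14, which rests partly on the 0 counts of Tnfrsf11b. Fas was closest to Tnfrsf11b, at 0.380. This pairing also rests partly on those 0 counts, and on 4 counts of Fas, in Sorbinil replicate 1.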

How the data were processed

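Total RNA of whole injured retina was sequenced. The authors mapped trimmed reads to GRCm39 in CLC Genomics Workbench at its default settings, and deposited the total count of each gene as whole numbers, with no normalization. The annotation release and the use of strand are not given in the sources used here, although the labels describe reverse stranded libraries. Columns were assigned to retinas by name. One Sorbinil retina, which the authors left out after PCA, was not analysed here. Any 2 retinas differed beyond sampling noise (chi-square over degrees of freedom of 25.5 or more), so each was 1 replicate. P-values measure only the spread between these retinas.

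Low counts were filtered by group in filterByExpr (minimum count 10), and edgeR 4.0.16 in R 4.3.3 was used for TMM scaling and the quasi-likelihood test (glmQLFit, glmQLFTest), with Benjamini-Hochberg adjustment. DESeq2 1.42.0 was an alternative, as were other filters, scalings and thresholds, the likelihood ratio test, a replicate block and leaving out each retina. With 1 Sorbinil retina left, that retina was assumed to vary like the DMSO retinas. Log2 CPM used a prior count of 2. Counting intervals are exact (Poisson or binomial, 95%) and cover counting error only, since reads carried no molecular identifiers. Exon lengths and positions came from GENCODE vM39 on GRCm39, where 23488 of 25655 symbols were matched.

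The members and lists were chosen with earlier results of these data known. Named genes were all members, their direct partners, the called genes and the 2 smallest p-values of each pathway list, and by likeness 5 genes for Fas and 2 for each other fitted member. One called pathway gene is not reported here. The steps were tested on simulated data.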

Additional observations from a re-analysis of the deposited data

How the results depend on the processing

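Over the 70 values of the 9 fitted members under other filters, scalings and tests, 0 changed sign and 0 moved by more than the spread between replicates. That spread includes the gap between the Sorbinil retinas, so it is a wide limit that other settings on the same counts could hardly pass. Leaving out each retina gave -1.16 to -0.27 for Tnfrsf1a, -1.62 to -0.27 for Tnfrsf1b, -0.75 to -0.03 for Tnfrsf10b, -0.48 to 0.14 for Tnfrsf12a, -1.42 to -0.06 for Tnfrsf21 and -1.13 to -0.01 for Ngfr, with the value nearest to 0 without Sorbinil replicate 1 except for Tnfrsf12a. The log2 ratio of Tnf ranged from -0.84 (without Sorbinil replicate 3) to 0.12 (without Sorbinil replicate 1). The 257 genes called over all genes became 408 with no filter on low counts, 148 with at least 10 counts in every retina, 168 with the unadjusted p-value held to 0.05 and 0 at an adjusted p-value under 0.05 (751 at an unadjusted p-value under 0.05, and 21 by the adjusted DESeq2 Wald test), and 164 (without DMSO replicate 1) to 2903 (without Sorbinil replicate 3) when a retina was left out. The 2 called pathway genes became 1 with at least 10 counts in every retina, 1 with the unadjusted p-value held to 0.05, 0 at an adjusted p-value under 0.05, and 1 (without DMSO replicate 2) to 23 (without Sorbinil replicate 3) when a retina was left out. The strict filter tests fewer genes. For the rest, the cause was not tested. Replicates 1 and 3 share a number in both groups, but nothing says that they are paired, and same-numbered retinas deviated with correlations of -0.24 and -0.12. With the replicate block, 203 genes were called over all genes and 1 pathway gene. With library size only, the median over all genes tested moved on the log2 scale from -0.008 to -0.11. Genes with few counts, such as Tnf and Tnfrsf11b, are limited by depth.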
